A study of Mus musculus with 8 samples.

Results

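The cells described here are Tac1 reporter enteroendocrine cells after 24 h of BMP4, set against untreated cells sorted onto the same plates. They came from murine intestinal organoids of the C57BL/6 strain that carry a Tac1 reporter, a Cre line by its sample title, and every group carries it. Live reporter-positive cells were sorted one per well, and the 24 h wells filled columns 7 to 12 while the untreated wells filled columns 1 to 6. Columns 13 to 24 of these plates held wells with 4 days of BMP4, whose levels are not described here. Wells with at least 2000 transcripts outside spike-in and mitochondrial rows were kept. On Tac1 plate 1 this left 54 of 96 wells at 24 h and 68 of 96 untreated wells, which are 122 of the 1006 cells kept in the whole series. Tac1 plate 2 added 9 cells at 24 h and 16 untreated cells, and its levels served only to read the direction of a difference. Its untreated and 4 day sums, of 16 cells each, also entered the test across plates described below. The labels give no BMP4 dose, no age and no culture of origin for the plates. A label set by Cre can outlast the use of its driver gene.

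Enteroendocrine cells release gut hormones and lie singly in the intestinal lining. Tac1, the precursor gene of substance P, is used by enterochromaffin cells, the enteroendocrine cells that make serotonin from tryptophan. BMP4 is a secreted ligand that binds paired receptor kinases, which phosphorylate Smad1, Smad5 and Smad9. These join Smad4 in the nucleus and switch on direct targets, above all the Id genes, whose products block helix-loop-helix transcription factors. In the intestine BMP activity is known to be low in the crypt and high toward the villus tip.

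The kept cells of plate 1 gave 354484 transcripts at 24 h and 467513 transcripts in untreated cells, with medians of 5553 and 5676 transcripts per cell. Levels are given in CPM: kept cells of a condition were summed, and each sum was brought to the same total. Intervals are exact 95% Poisson or binomial intervals and cover counting error only. With 1 plate, a level on plate 1 has no replicate, and cells of 1 plate are not replicates of a treatment. Mitochondrial rows held 6.90% of transcripts at 24 h and 6.06% in untreated cells, and the median spike-in count was 846 and 863 per cell. Condition and place on the plate coincide, so they cannot be told apart. Somatostatin transcripts (Sst) were found in 53 of 54 cells at 24 h and 67 of 68 untreated cells of plate 1 after each cell was thinned to 2000 transcripts, so a low count of an abundant hormone gene in a cell of this plate was read as background. In 6 cells at 24 h and 9 untreated cells, Gip, Sst, Gcg, Cck, Ghrl or Kcnq1ot1 took over 5% of transcripts, and results that rest on them are given with and without them.

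Endocrine transcripts were found in the kept cells of both groups. Chromogranin A (Chga), a core protein of secretory granules, reached at least 5 of 2000 thinned transcripts in 52 of 54 cells at 24 h and in 64 of 68 untreated cells. Tac1 or Tph1, the rate-limiting enzyme of serotonin synthesis, had at least 1 thinned transcript in 50 of 54 cells at 24 h and in 63 of 68 untreated cells. Every kept cell of plate 1 held at least 10 transcripts of 6 general endocrine genes. Chga and Chgb gave more transcripts than Sst in both groups, so background may meet such low minimums. These counts therefore do not show the type of a single cell.

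The Id genes gave the clearest difference at 24 h. Id1 had 370.2 CPM (309 to 438) at 24 h and 17.1 CPM (7.39 to 33.7) in untreated cells, a ratio of 21.6 (10.6 to 51.1). Id2 had 576 CPM (499 to 660) at 24 h and 36.4 CPM (21.2 to 58.2) in untreated cells, a ratio of 15.8 (9.64 to 27.7). Id3 had 418 CPM (353 to 490) at 24 h and 34.2 CPM (19.6 to 55.6) in untreated cells, a ratio of 12.2 (7.27 to 21.9). These 3 genes stood more than 10-fold apart, whereas the median log2 change of the 2021 genes with at least 100 CPM was -0.001. Plate 2 pointed the same way for each. There, Id1 had 12 transcripts at 24 h and 0 in untreated cells, Id2 had 32.02 at 24 h and 2 in untreated cells, and Id3 had 30.1 at 24 h and 1 in untreated cells. One 24 h cell held 70.05% of the Id3 transcripts there, and without the cells led by another gene Id3 had 264 CPM at 24 h and 10.2 CPM in untreated cells of plate 2. By GENCODE M21 on GRCm38 these are protein-coding genes, Id1 at chr2:152736251-152737410 on the plus strand, Id2 at chr12:25093799-25097140 on the minus strand and Id3 at chr4:136143497-136145755 on the plus strand.

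The Id response was uneven among cells and among columns of plate 1. The summed level of the 3 genes per column ran from 244 CPM through a median of 1549 CPM to 2718 CPM over the 6 columns at 24 h. Over the 6 untreated columns it ran from 51.9 CPM through a median of 84.4 CPM to 129 CPM. The columns of the groups did not overlap, although columns 8 and 10 (244 and 444 CPM) lay well below the other 24 h columns. In thinned cells the sum ran from 0 through a median of 2 to 17 transcripts at 24 h, and from 0 through a median of 0 to 2 transcripts in untreated cells. At least 5 of 2000 thinned transcripts were found in 14 of 54 cells at 24 h (25.9%, 14.96 to 39.7%) and in 0 of 68 untreated cells (0 to 5.28%). At least 1 was found in 35 of 54 cells at 24 h (64.8%) and 13 of 68 untreated cells (19.1%). Thus 19 of 54 cells at 24 h showed none at this depth, which does not show that they lacked these RNAs.

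**Figure D1:**
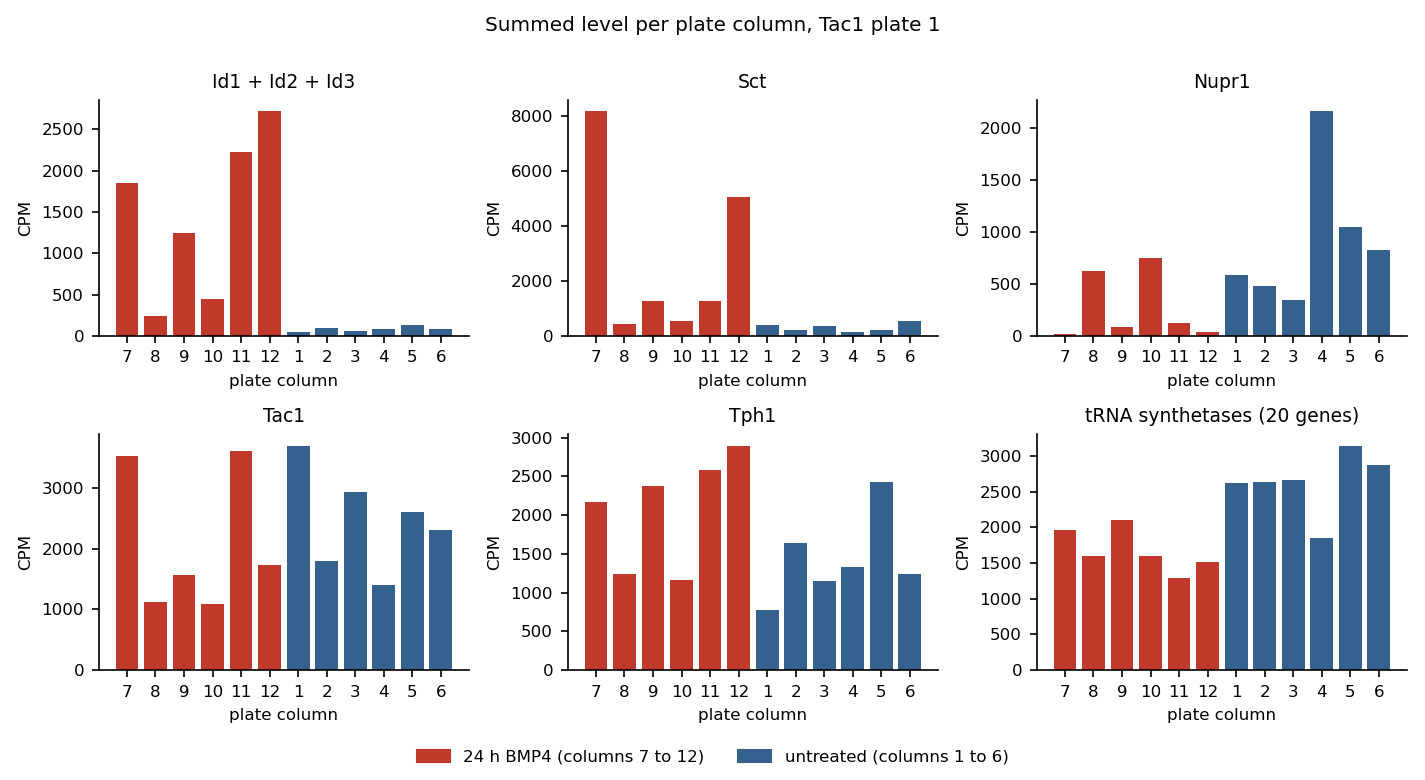
Summed level in CPM per plate column of Tac1 plate 1, with the 24 h columns (red) left of the untreated columns (blue), for 5 genes or gene sums and 20 tRNA synthetase genes. Each bar is 1 column of 7 to 13 kept cells. The Id sum lies between 244 and 2718 CPM in the 24 h columns, above all untreated columns, and among the 24 h columns 8 and 10 are lowest for Id and Sct and highest for Nupr1.

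Tested across plates, only these 3 genes rose. Sums of kept cells per plate and condition were compared with edgeR's quasi-likelihood test, with the plate as a block. The fit held 14 sums of the Tac1, Gcg and Gip lines, those of 4 days of BMP4 among them. It left 3 residual degrees of freedom for the spread, all from the Tac1 and Gcg plates, as the lone Gip plate added none. The 24 h group of the Tac1 line held 1 sum, plate 1, because the 9 cells of plate 2 were too few, so this sum is assumed to vary like the others. Of 10733 genes tested, 3 rose (0.028%) and 0 fell (0.0%) at an adjusted p below 0.05, and 224 had an unadjusted p below 0.05. The log2 change was 4.64 ± 0.63 for Id1 (SE; edgeR adjusted p = 0.028), 3.94 ± 0.48 for Id2 (adjusted p = 0.021) and 3.70 ± 0.47 for Id3 (adjusted p = 0.021). DESeq2 called 7 genes, 5 higher and 2 lower. Leaving out Tac1 plate 2 ended all 3 calls, at edgeR adjusted p up to 0.316 for Id1, although its log2 change stayed between 4.45 and 5.24 over 14 alternatives. The adjusted p of Id1 over these ran from 6.96e-17 to 0.316. Leaving out the cells led by another gene ended the calls as well.

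Sct, which encodes secretin, a hormone that stimulates bicarbonate secretion by the pancreas, was the most abundant gene among those far higher at 24 h. It had 2701 CPM (2534 to 2879) at 24 h and 319 CPM (270 to 374) in untreated cells, a ratio of 8.47 (7.13 to 10.1). A single cell held 31.2% of the 24 h transcripts, and without the top cell of each group the levels were 1907 CPM at 24 h and 292 CPM in untreated cells. On plate 2, Sct had 1673 CPM at 24 h and 369 CPM in untreated cells. The edgeR log2 change was 3.08 ± 0.52 (adjusted p = 0.13, and 7.86e-12 to 1.0 over 14 alternatives, 6 of which called it), so it did not pass. Sct is a protein-coding gene at chr7:141278330-141279133 on the minus strand of GRCm38.

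Most 24 h cells held little secretin RNA and a few held much. Thinned counts of Sct ran from 0 through a median of 1 to 75 at 24 h, and from 0 through a median of 0 to 10 in untreated cells. At least 5 thinned transcripts were found in 11 of 54 cells at 24 h (20.4%, 10.6 to 33.5%) and in 1 of 68 untreated cells (1.47%, 0.0372 to 7.92%). Any thinned transcript was found in 33 of 54 cells at 24 h and 31 of 68 untreated cells. A single transcript can be background on this plate, and no background share of Sct was measured, so neither these counts nor those of cells holding both genes show use of Sct by a cell. By column, Sct ran from 430 CPM through a median of 1263 CPM to 8156 CPM at 24 h, and from 149 CPM through a median of 286 CPM to 541 CPM in untreated columns. The column ranges overlapped, and columns 8 and 10 were again lowest at 24 h. At 24 h, 22 cells held both Id and Sct transcripts, 13 held Id only, 11 held Sct only and 8 held neither. Among untreated cells the counts were 5, 8, 26 and 29. Of the cells with Sct, 26 of 33 at 24 h and 23 of 31 untreated cells also held Tac1.

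**Figure D2:**
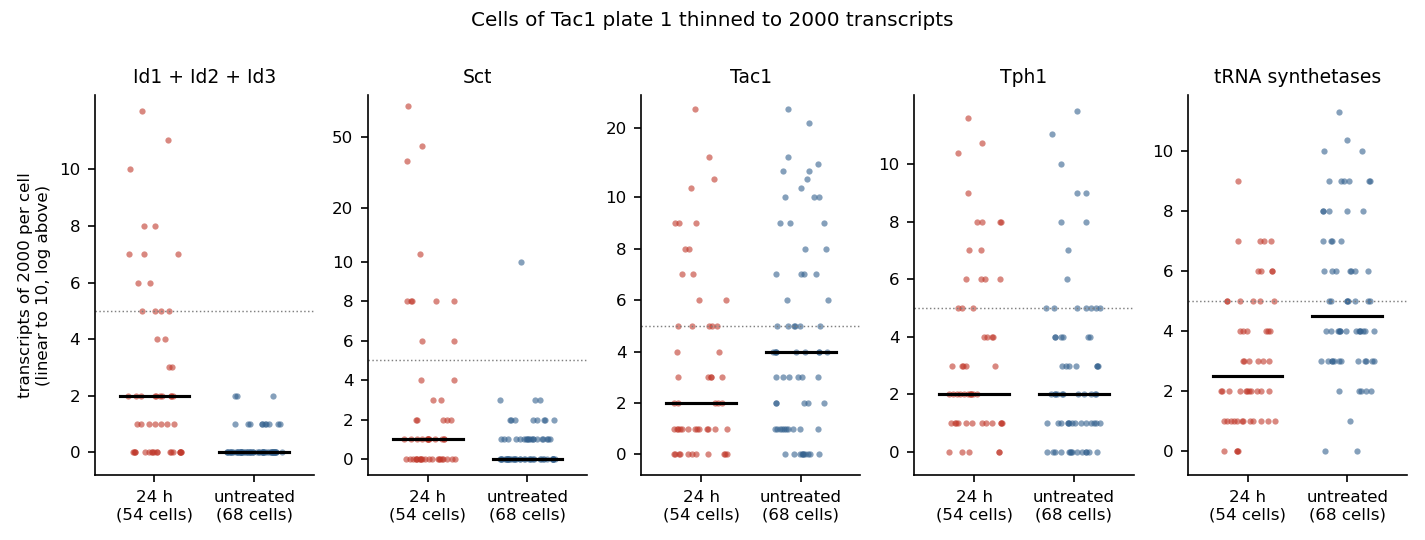
Transcripts per cell after thinning every kept cell of Tac1 plate 1 to 2000 transcripts, for 54 cells at 24 h (red, left) and 68 untreated cells (blue, right). Each point is a cell, the black bar is the median, the dotted line marks 5 transcripts, and the axis is linear to 10 and logarithmic above. Id sums reach 17 at 24 h and 2 in untreated cells, and Sct reaches 75 at 24 h and 10 in untreated cells.

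The stretches before the starts of Id2 and Sct are shown because both genes were far higher at 24 h and the windows hold the GC-rich palindrome GGCGCC, which BMP-activated Smads are known to bind. They are RefSeq sequences of GRCm38.p6, read 5′ to 3′ on the strand of the gene, with the palindrome in capitals. The Id2 stretch lies at chr12:25096263-25096342 (minus strand), bases -250 to -171 from the start, and the Sct stretch at chr7:141279263-141279342 (minus strand), bases -209 to -130, and neither touches an exon of GENCODE M21, although the Id2 stretch lies within the span of the gene there.
Id2: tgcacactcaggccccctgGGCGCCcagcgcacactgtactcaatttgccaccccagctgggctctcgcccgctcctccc
Sct: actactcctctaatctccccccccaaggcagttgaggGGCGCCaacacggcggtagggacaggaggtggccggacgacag
The palindrome reads the same on both strands. It occurs in 11.9% of the 32851 promoter windows of 300 bases (250 before the start and 50 after), and the window of Id3 does not hold these letters.

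The other listed genes of the BMP pathway gave small differences or had few transcripts. Outside the lists, Acvrl1, a type I receptor of the BMP family picked out after its values were seen, had 133 CPM (97.4 to 176) at 24 h and 57.8 CPM (38.1 to 84.03) in untreated cells of plate 1. Plate 2 held 1 transcript of Acvrl1 at 24 h and 5 in untreated cells. Of 13 listed BMP targets, 11 were in the files, and 3, the Id genes, had at least 100 CPM and stood at least 2-fold higher, against 1.58% of the 2021 genes at that level. Tgif1, a Smad corepressor, had 93.1 CPM at 24 h and 96.3 CPM in untreated cells. Smad6, an inhibitory Smad, had 11.3 CPM at 24 h and 2.14 CPM in untreated cells, and Bambi, a decoy receptor, 8.46 CPM at 24 h and 17.1 CPM in untreated cells. The other inhibitory Smad, Smad7, had 0 transcripts in both groups, below floors of 8.46 CPM at 24 h and 6.42 CPM in untreated cells (3 transcripts per group). The inhibitory genes thus lay at or near the limit of this depth. The receptor Bmpr1a had 93.1 CPM at 24 h and 103 CPM in untreated cells, and the shared Smad4 had 84.6 CPM at 24 h and 77.003 CPM in untreated cells. Smad1 had 50.8 CPM at 24 h and 55.6 CPM in untreated cells, and the 10 listed receptors and Smads together had 423 CPM at 24 h and 419 CPM in untreated cells.

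Tbx3, a T-box repressor, and Sstr1, a receptor for somatostatin, were also among the larger differences. Tbx3 had 39 transcripts (110.0 CPM) at 24 h and 10 transcripts (21.4 CPM) in untreated cells, a ratio of 5.14 (2.52 to 11.6). Plate 2 held 4 transcripts of Tbx3 at 24 h and 0 in untreated cells. Sstr1 had 104 CPM at 24 h and 29.9 CPM in untreated cells, a ratio of 3.49 (1.84 to 6.98), and on plate 2 it had 2 transcripts at 24 h and 1 in untreated cells. Neither passed edgeR's test (log2 change 2.61 ± 0.62 for Tbx3 and 1.90 ± 0.54 for Sstr1, adjusted p = 1.0 for both). Over 14 alternatives the adjusted p of Tbx3 ran from 0.00143 to 1.0, with 3 calls, and that of Sstr1 from 0.106 to 1.0, with 0 calls.

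On plate 1 the genes that define the enterochromaffin cell stood close together in the groups. Tac1 itself had 2027 CPM (1880 to 2179) at 24 h and 2532 CPM (2390 to 2681) in untreated cells, and on plate 2 it had 895 CPM at 24 h and 3129 CPM in untreated cells. Of the 9 cells of plate 2 at 24 h, 2 were led by Gip and count in the total behind every level there, and without cells led by another gene Tac1 had 1556 CPM (1163 to 2032) at 24 h and 3372 CPM (3016 to 3753) in untreated cells of plate 2. A single untreated cell held 53.04% of its transcripts on that plate. By column it ran from 1093 CPM through a median of 1650 CPM to 3616 CPM at 24 h, and from 1394 CPM through a median of 2456 CPM to 3700 CPM in untreated columns, with wide overlap. The edgeR log2 change of Tac1 was -0.25 ± 0.62 (adjusted p = 1.0). Tph1 had 2029 CPM at 24 h and 1484 CPM in untreated cells. On plate 2 it had 1284 CPM at 24 h and 880 CPM in untreated cells. One 24 h cell held 39.5% of its 24 h transcripts on that plate. Without the cells led by another gene, Tph1 there had 2203 CPM (1729 to 2755) at 24 h and 948 CPM (764 to 1160) untreated. Its log2 change in edgeR was 0.65 ± 0.46 (adjusted p = 1.0). Ucn3, the peptide urocortin 3, had 708 CPM at 24 h and 512 CPM in untreated cells, with the opposite order on plate 2 (270 CPM at 24 h and 1050 CPM in untreated cells, or 469 CPM at 24 h and 1071 CPM in untreated cells without the cells led by another gene). Averaged per cell instead of over transcripts, the log2 change of Ucn3 on plate 1 was -0.01.

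On plate 1, serotonin genes showed no shared direction. On plate 2, 9 of the 11 with a transcript were lower at 24 h and 2 higher. There, 55.8% of the genes with at least 100 CPM on plate 1 were lower. Both counts keep the cells led by Gip, without which the 24 h total fell from 59319 to 34122 transcripts. No count of these genes was made without those cells. The levels in the rest of this paragraph are of plate 1. Of 7 with at least 100 CPM, 3 were higher and 4 lower at 24 h, where 50.1% of all genes at that level were lower, with a median log2 change of -0.01, and none was 2-fold apart. Ddc, the decarboxylase that completes serotonin synthesis, had 2776 CPM at 24 h and 2914 CPM in untreated cells. The vesicle transporter Slc18a1, which loads serotonin into granules, had 364 CPM at 24 h and 304 CPM in untreated cells, and its relative Slc18a2 had 263 CPM at 24 h and 182 CPM in untreated cells. Gch1, the first enzyme of the cofactor pathway that Tph1 needs, had 683 CPM at 24 h and 687 CPM in untreated cells. The reuptake transporter Slc6a4 had 0 transcripts at 24 h and 4.28 CPM in untreated cells.

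Granule and release genes likewise gave balanced counts on plate 1. On plate 2, 8 of 13 listed granule and prohormone-processing genes were lower at 24 h and 5 higher. Their sum there was 52257 CPM at 24 h, with the cells led by Gip in the total, and 85128 CPM in untreated cells. The values that follow are of plate 1. Of 12 granule and prohormone-processing genes with at least 100 CPM, 6 were higher and 6 lower at 24 h. Chga had 23340 CPM at 24 h and 21910 CPM in untreated cells, and chromogranin B (Chgb) had 52662 CPM at 24 h and 56336 CPM in untreated cells. Pcsk1, the convertase that cleaves prohormones, had 904 CPM at 24 h and 893 CPM in untreated cells. Scg2, secretogranin 2, had 76.2 CPM at 24 h and 171 CPM in untreated cells, but without the cells led by another gene its log2 change turned from -1.07 to 0.29. Of 8 exocytosis genes, 5 were higher and 3 lower, with Snap25, a membrane fusion protein, at 183 CPM at 24 h and 128 CPM in untreated cells, and the complexin Cplx2 at 505 CPM at 24 h and 619 CPM in untreated cells. Of 6 sensing receptors and channels, 2 were higher and 4 lower, and the irritant channel Trpa1, typical of enterochromaffin cells, had 1513 CPM at 24 h and 1722 CPM in untreated cells.

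Endocrine transcription factors showed no shared direction on plate 1, and of those with at least 100 CPM only Tbx3 stood at least 2-fold apart. Of 13 with at least 100 CPM, 6 were higher and 7 lower, with a median log2 change of -0.01. Neurod1, a helix-loop-helix factor of mature endocrine cells, had 1077 CPM (972 to 1191) at 24 h and 651 CPM (579 to 728) in untreated cells, and on plate 2 it had 996 CPM at 24 h and 681 CPM in untreated cells. Its edgeR log2 change was 0.54 ± 0.47 (adjusted p = 1.0). Nkx2-2, a homeobox factor of the endocrine lineage, had 437 CPM at 24 h and 608 CPM in untreated cells. Isl1 had 116 CPM at 24 h and 189 CPM in untreated cells, with 63.5% of the 24 h transcripts in 1 cell. On plate 2, Isl1 had 338 CPM at 24 h and 0 transcripts in untreated cells. Fev and Lmx1a, factors of serotonin-making cells, had 918 and 723 CPM at 24 h and 925 and 677 CPM in untreated cells.

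The remaining hormone genes differed by large factors that rested on very few cells. Of 9 hormone genes with at least 100 CPM, 3 were higher and 6 lower at 24 h. Gip, the incretin of K cells, had 5299 CPM at 24 h and 15387 CPM in untreated cells, and the top cell held 78.3% of its transcripts at 24 h and 56.5% in untreated cells. On plate 2 the order was the opposite, with 137438 CPM at 24 h and 312 CPM in untreated cells. Sst had 7109 CPM at 24 h and 15733 CPM in untreated cells, and the top cell held 41.6% at 24 h and 52.5% in untreated cells. Cck and Ghrl, the genes of cholecystokinin and ghrelin, had 155 and 31.03 CPM at 24 h and 1084 and 438 CPM in untreated cells. Without the cells led by another gene, the log2 change turned positive for Cck (0.28), Gip (0.23), Sst (0.22) and Ghrl (0.36). A single 24 h cell held 92.5% of the transcripts of Pyy, the peptide YY gene (337 CPM at 24 h and 8.56 CPM in untreated cells), and a single untreated cell held 95.2% of those of Gcg (11.3 CPM at 24 h and 353 CPM in untreated cells). Neither passed edgeR's test in the main fit. Over 14 alternatives the log2 change of Pyy ran from 1.93 to 5.67, and some of these called it although it rested on 1 cell.

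Over all 2021 genes with at least 100 CPM in the higher group, 32 (1.58%) stood at least 2-fold higher at 24 h and 29 (1.43%) at least 2-fold lower. In 15 of the 32 and 12 of the 29, one cell held over 20% of the transcripts. On plate 2, 17 of 29 of the higher genes that had a transcript there, and 15 of 27 of the lower ones, had the same direction, where 44.2% of all genes were higher and 55.8% lower at 24 h. The share that recurred on plate 2 was thus near that of all genes for the lower genes and somewhat above it for the higher ones.

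**Figure D3:**
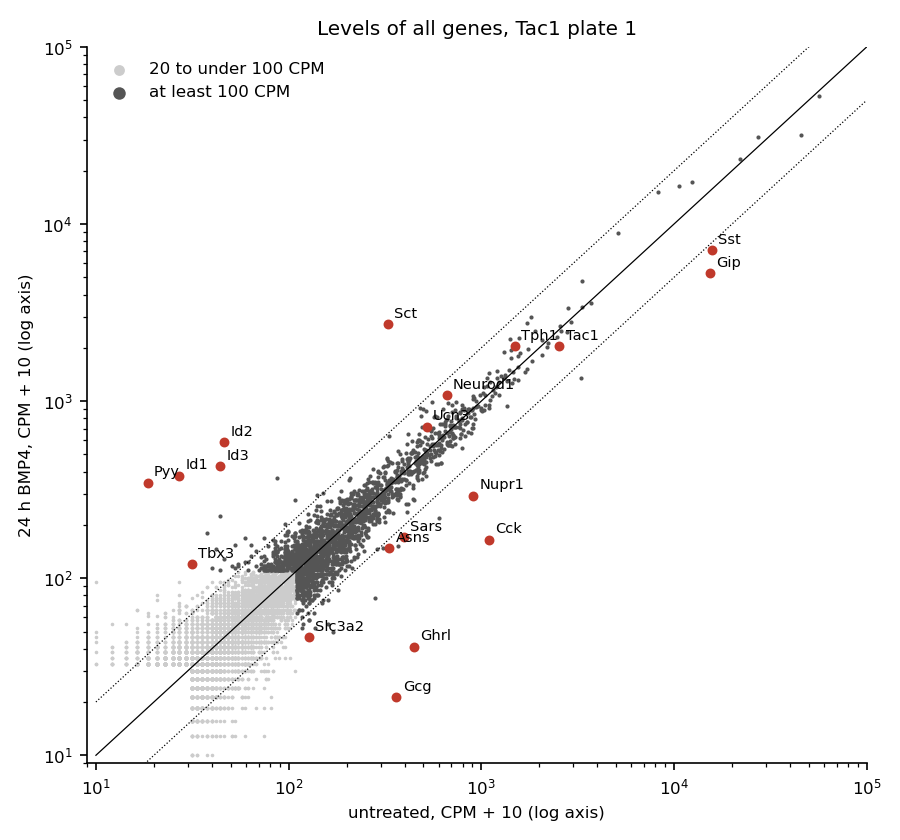
Level of every gene with at least 20 CPM on Tac1 plate 1, at 24 h (vertical) against untreated (horizontal), both as CPM + 10 on log axes. Points are genes, the solid line marks equal levels, dotted lines mark 2-fold, and named genes are red. Id1, Id2, Id3 and Sct stand above the band, and the single-cell-driven hormone genes Pyy, Gcg, Ghrl and Cck lie far from the diagonal as well.

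Of the higher genes in which no cell held over 20% of transcripts, which leaves out Id1 (22.2% at 24 h), the 12 with the largest difference were picked, and 8 of these 12 had the same direction on plate 2. Besides Id2, Id3, Tbx3 and Sstr1 they include Prlr, the prolactin receptor, which had 158 CPM at 24 h and 49.2 CPM in untreated cells, and on plate 2 had 152 CPM at 24 h and 94.4 CPM in untreated cells. Trp53i11, a gene induced by p53, had 192 CPM at 24 h and 85.6 CPM in untreated cells, and on plate 2 had 287 CPM at 24 h and 113 CPM in untreated cells. Smpdl3a, a phosphodiesterase related to acid sphingomyelinase, had 124 CPM at 24 h and 53.5 CPM in untreated cells, and Cbx8, a Polycomb protein, had 102 CPM at 24 h and 34.2 CPM in untreated cells. Plate 2 went the other way for Acnat1 (144 CPM at 24 h and 42.8 CPM in untreated cells on plate 1), Slc25a25, a mitochondrial carrier of adenine nucleotides (119 CPM at 24 h and 36.4 CPM in untreated cells), Gpbp1l1 and B3gnt3. None but Id2 and Id3 passed edgeR's test.

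Of the 12 lower genes picked the same way, 8 were lower on plate 2 as well, and Eif2s2 was equal in both groups there. Slc3a2, the shared heavy chain of amino acid transporters, had 36.7 CPM at 24 h and 118 CPM in untreated cells, and on plate 2 had 16.9 CPM at 24 h and 75.6 CPM in untreated cells. Sars, the seryl-tRNA synthetase, had 161 CPM at 24 h and 385 CPM in untreated cells, and Asns, the asparagine synthetase, had 138 CPM at 24 h and 323 CPM in untreated cells. Eif2s2, the beta subunit of the initiation factor eIF2, had 138 CPM at 24 h and 299.5 CPM in untreated cells, with 236 CPM in both groups of plate 2. The others were Ubr2, a ubiquitin ligase (45.1 CPM at 24 h and 150 CPM in untreated cells), Slc25a4, Mrpl36, Matr3, Dgkz, Vps37a, Rab10 and 1 row under a microRNA symbol, for which no value is given. Plate 2 went the other way for Ubr2, Mrpl36 and Dgkz. None of the 12 passed edgeR's test.

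**Figure D4:**
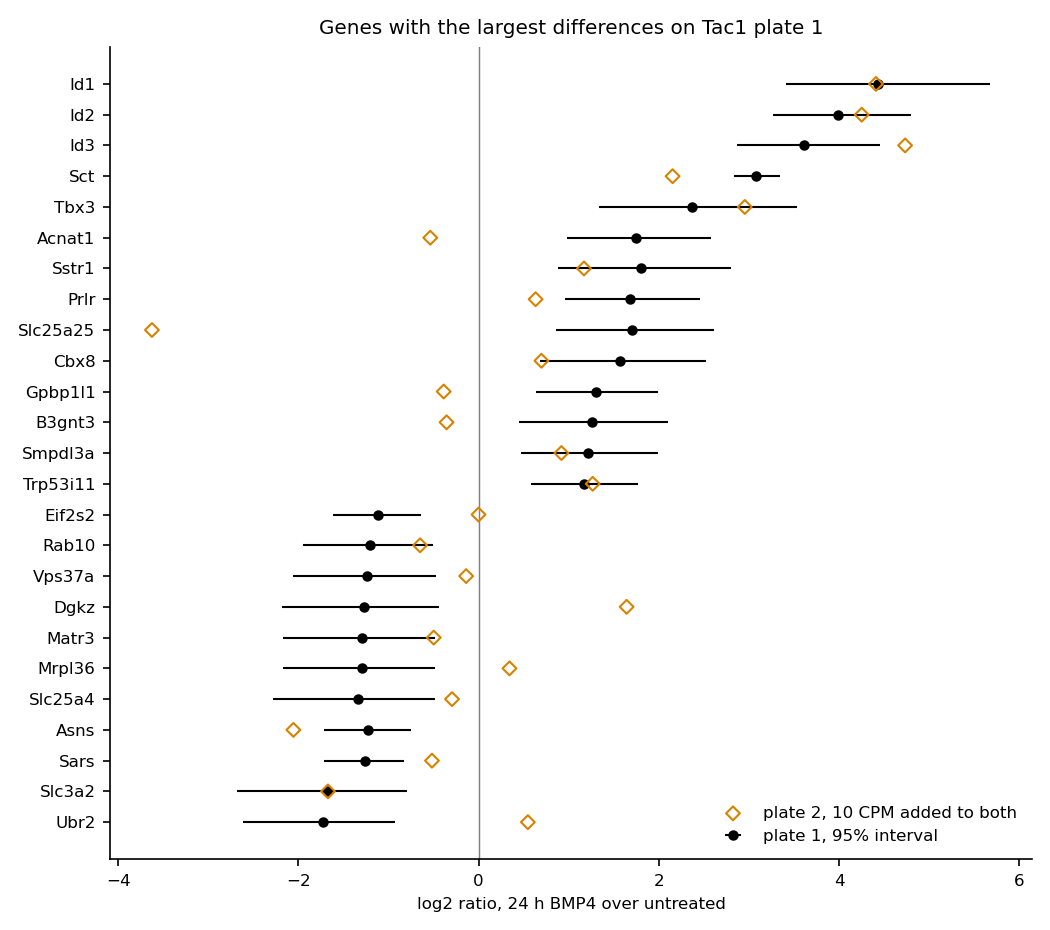
Log2 ratio of 24 h over untreated for the largest differences on Tac1 plate 1, with Id1 and Sct added. Black points are plate 1 with exact 95% intervals for counting error, and open diamonds are plate 2 with 10 CPM added to both groups. Id1, Id2, Id3, Sct and Tbx3 are above 1 on both plates, while Slc25a25, Acnat1, Dgkz and Ubr2 point opposite ways.

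Because Slc3a2, Sars and Asns stood among them, 2 gene lists were drawn up after the values had been seen, so their counts are a description only and no test was made of them. The first holds 20 cytosolic aminoacyl-tRNA synthetases, the enzymes that load amino acids onto tRNAs. All 5 with a mean of at least 100 CPM over both groups were lower at 24 h, where 50% of all genes at that mean level were lower. Of 19 with a mean of at least 20 CPM, 14 were lower (73.7%, against 50.9% of all genes), with a median log2 change of -0.79. Summed, the 20 genes had 1688 CPM (1554 to 1828) at 24 h and 2696 CPM (2550 to 2850) in untreated cells, and on plate 2 they had 1737 CPM (1417 to 2106) at 24 h and 2750 CPM (2442 to 3083) in untreated cells. By column of plate 1 the sum ran from 1296 CPM through a median of 1604 CPM to 2101 CPM at 24 h, and from 1856 CPM through a median of 2649 CPM to 3146 CPM in untreated columns, so the groups overlapped, with columns 7 and 9 at 24 h above the untreated column 4. At least 5 thinned transcripts of the 20 genes together were found in 15 of 54 cells at 24 h (27.8%, 16.5 to 41.6%) and in 34 of 68 untreated cells (50%, 37.6 to 62.4%).

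Within the list the differences ranged widely. Aars, the alanyl-tRNA synthetase, had 104 CPM at 24 h and 203 CPM in untreated cells. Gars, the glycyl-tRNA synthetase and the most abundant, had 652 CPM at 24 h and 878 CPM in untreated cells. Tars, the threonyl-tRNA synthetase, had 25.4 CPM at 24 h and 85.6 CPM in untreated cells. The exceptions from 20 CPM were Lars, Qars, Farsa, Kars and Rars, which were higher at 24 h by 0.17 to 0.49 on the log2(CPM + 10) scale. The sum was also lower at 24 h on the plates of the other lines, at 1520 CPM at 24 h and 1677 CPM in untreated cells on Gcg plate 1, 1336 CPM at 24 h and 1942 CPM in untreated cells on Gcg plate 2, and 1276 CPM at 24 h and 1631 CPM in untreated cells on the Gip plate.

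The second list holds 23 genes of the amino acid programme of Atf4, a transcription factor that cells switch on when amino acids run short. Of 8 with a mean of at least 100 CPM over both groups, 7 were lower at 24 h, where 50% of all genes were lower. Of 18 with a mean of at least 20 CPM, 17 were lower (94.4%, against 50.9% of all genes), with a median log2 change of -0.46. Their sum was 2329 CPM at 24 h and 3840 CPM in untreated cells of plate 1, and 2115 CPM at 24 h and 4470 CPM in untreated cells of plate 2. Without the cells led by another gene, plate 2 had 3295 CPM at 24 h and 4685 CPM in untreated cells. Atf4 itself had 519 CPM at 24 h and 589 CPM in untreated cells, a smaller difference than most of the list. Nupr1, a stress-induced nuclear protein, had 283 CPM at 24 h and 899 CPM in untreated cells, with 41.1% of the 24 h transcripts in 1 cell, and on plate 2 it had 1019 CPM at 24 h and 1445 CPM in untreated cells. All Nupr1 transcripts of plate 2 at 24 h came from 1 of 9 cells. The level without that cell was thus 0, against 770 CPM in untreated cells without their top cell. Without the cells led by another gene, Nupr1 there had 1771 CPM at 24 h and 1476 CPM in untreated cells, the opposite order. By column Nupr1 ran from 17.4 CPM through a median of 104 CPM to 752 CPM at 24 h, where columns 8 and 10, those low in Id, were the highest. It ran from 351 CPM through a median of 705 CPM to 2165 CPM in untreated columns. Chac1, an enzyme that degrades glutathione, had 1 transcript at 24 h and 30 transcripts in untreated cells (2.82 CPM at 24 h and 64.2 CPM in untreated cells), a ratio of 0.044 (0.00108 to 0.264). Atf5, a related transcription factor, had 19.7 CPM at 24 h and 98.4 CPM in untreated cells. The only member at 100 CPM that was higher at 24 h was Ddit4, an inhibitor of mTOR signalling, with 172 CPM at 24 h and 148 CPM in untreated cells.

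None of these genes passed edgeR's test. The log2 change was -1.46 ± 0.48 for Sars, -0.87 ± 0.54 for Asns, -1.87 ± 0.75 for Nupr1 and -4.48 ± 1.23 for Chac1 (adjusted p = 1.0 for each). Of 14 alternatives, 2 called Nupr1 (adjusted p 0.00136 to 1.0) and 0 called Sars or Asns.

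**Figure D5:**
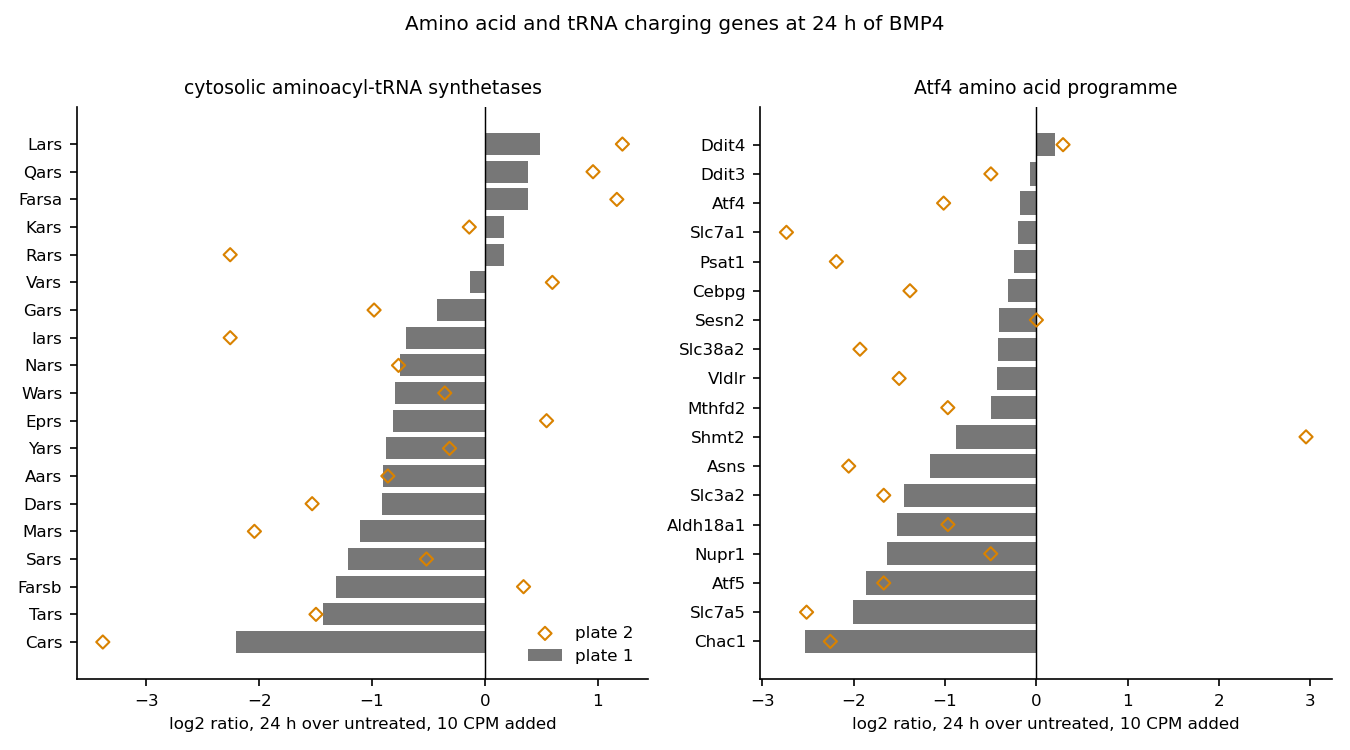
Log2 ratio of 24 h over untreated, with 10 CPM added to both groups, for the tRNA synthetases (left) and the Atf4 amino acid programme (right) with at least 20 CPM. Bars are Tac1 plate 1 and open diamonds are plate 2. On plate 1, 14 of 19 synthetases and 17 of 18 programme genes lie below 0.

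Stretches before the starts of 5 of these genes are shown because they were lower together and hold TGATGNAA, the letters of the composite element that Atf4 and its C/EBP partners are known to bind, searched on both strands. They are RefSeq sequences of GRCm38.p6, read 5′ to 3′ on the strand of the gene, with the match in capitals, and matches on the opposite strand appear as the reverse complement. Those of Asns, Nupr1 and Tars overlap an exon of GENCODE M21 and are kept to 30 bases. The stretches of Asns and Nupr1 lie within the span of the gene there.
Asns: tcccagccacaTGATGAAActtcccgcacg
Chac1: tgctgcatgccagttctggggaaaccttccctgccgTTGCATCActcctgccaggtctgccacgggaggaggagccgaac
Nupr1: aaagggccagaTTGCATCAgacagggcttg
Gars: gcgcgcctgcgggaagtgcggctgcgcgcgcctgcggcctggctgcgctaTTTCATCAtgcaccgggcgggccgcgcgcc
Tars: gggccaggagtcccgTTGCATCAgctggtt
The stretches lie at chr6:7693214-7693243 (minus strand) for Asns, chr2:119351013-119351092 (plus strand) for Chac1 and chr7:126625562-126625591 (minus strand) for Nupr1. Those of Gars and Tars lie at chr6:55037921-55038000 (plus strand) and chr15:11399659-11399688 (minus strand). The letters occur in 3.97% of all 32851 promoter windows and in 4.51% of all genes with a window. They occur in 5 of the 12 synthetase genes with a window (41.7%) and in 7 of the 22 programme genes with a window (31.8%). The programme list was chosen for its tie to Atf4, so its share is not a result of these data. The windows of Atf5, Sars and Slc3a2 do not hold these letters, and a match is a description of letters, not of a bound site.

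Stress and RNA quality lists gave differences of mixed size. Of 9 immediate early and heat shock genes with at least 100 CPM, 8 were higher at 24 h on plate 1, with a median log2 change of 0.29, where 49.9% of all genes were higher. Fosb, a subunit of the AP-1 factor, had 813 CPM at 24 h and 479 CPM in untreated cells, and Jun had 2261 CPM at 24 h and 1565 CPM in untreated cells. On plate 2, 5 of 10 listed genes were higher and 5 lower, so the direction did not recur. Of 7 genes of the unfolded protein response, 5 were higher and 2 lower, with Hspa5, the main chaperone of the endoplasmic reticulum, at 737 CPM at 24 h and 612 CPM in untreated cells. Of 4 nuclear RNAs, 3 were higher and 1 lower on plate 1, with a median log2 change of 0.68. Meg3 had 357 CPM at 24 h and 77.1 CPM in untreated cells, with 48.5% of the 24 h transcripts in 1 cell. Plate 2 held 0 transcripts of Meg3 in both groups. Kcnq1ot1 had 15216 CPM at 24 h and 8303 CPM in untreated cells of plate 1, and 4981 CPM at 24 h and 17559 CPM in untreated cells of plate 2. Malat1, another nuclear RNA, had 17343 CPM at 24 h and 12325 CPM in untreated cells. The part of these values in the gene differences was not tested. Ribosomal protein genes were lower at 24 h in 61 of 71 on plate 1, with a median log2 change of -0.16, but higher in 69 of 75 on plate 2. The 3 interferon and antigen presentation genes with at least 100 CPM split into 1 higher and 2 lower.

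Markers of other epithelial cells were mostly low. Of 14 enterocyte genes, 3 had at least 100 CPM, of which 2 were higher and 1 lower at 24 h. Their sum was 2277 CPM at 24 h and 1595 CPM in untreated cells of plate 1, and 2254 CPM at 24 h and 795 CPM in untreated cells of plate 2. Without the cells led by another gene it was 1010 CPM at 24 h and 871 CPM in untreated cells of plate 1, and 762 CPM at 24 h and 846 CPM in untreated cells of plate 2. Of 8 goblet genes, Tff3, a mucus-associated peptide, had 2475 CPM at 24 h and 1889 CPM in untreated cells, with 979 CPM at 24 h and 2663 CPM in untreated cells on plate 2. Summed Paneth cell markers had 50.8 CPM at 24 h and 27.8 CPM in untreated cells, tuft cell markers 127 CPM at 24 h and 120.0 CPM in untreated cells, and proliferation genes 73.3 CPM at 24 h and 79.1 CPM in untreated cells. Crypt and stem cell genes had 274 CPM at 24 h and 229 CPM in untreated cells, and villus tip genes 147 CPM at 24 h and 163 CPM in untreated cells. The part of these cell markers in the gene differences was not tested.

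A further Tac1 plate, labelled as 24 h of BMP4 throughout, stood apart from the 24 h wells of plates 1 and 2. Its 48 kept cells had 56.3 CPM of Id1, 61.4 CPM of Id2 and 0 transcripts of Id3 (floor 15.3 CPM), near the levels in untreated cells of plate 1. Its Sct was 338 CPM, and at least 5 thinned transcripts of Sct were found in 0 of 48 cells. Nupr1 had 10.2 CPM there, the synthetase sum 1592 CPM and the Atf4 list 1730 CPM, which lay nearer to the 24 h levels of plate 1 than to its untreated ones. The library labelled 24 h thus went against its label in Id and Sct. Untreated sums of the Gcg and Gip plates had 1631 to 1942 CPM for the synthetases and 1667 to 2388 CPM for the Atf4 list. Their Nupr1 ran from 21.7 to 137 CPM. Levels of these genes thus cannot tell treatment from plate or line, and this library entered no comparison here.

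The Gcg reporter line, tested in the same fit on 2 plates, gave changes of similar size for these genes. The log2 change at 24 h in Tac1 cells minus that in Gcg cells was -0.51 ± 0.85 for Id1, 0.32 ± 0.58 for Id2, -1.06 ± 0.64 for Id3 and -0.07 ± 0.66 for Sct (adjusted p = 1.0 for each). Tph1 differed by 2.36 ± 0.67 (unadjusted p = 0.0040, adjusted p = 1.0) and Tac1 by 1.98 ± 0.91 (adjusted p = 1.0). Both differences rest on few transcripts of the Gcg plates, where Tph1 had at most 34.5 CPM and Tac1 at most 29.3 CPM in any group. Over all 10733 genes edgeR called 0 (0.0%) for this difference, with 196 at an unadjusted p below 0.05, and DESeq2 called 0. The errors are wide enough that a p above the threshold does not show that the lines respond alike.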

How the data were processed

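Single cells in 384-well plates were sequenced by SORT-seq with molecular identifiers, per the labels' protocols. The submitters' processing notes name BWA 0.6.2-r126 and the build mm10. For the counter and strand, the setting was not given in the sources used here. Each deposited value is an expected count of transcripts per gene and well, not a whole number, and the authors' step behind the decimals is not stated by the labels. A deposited well list matched the labels in 768 of 768 wells of the Tac1 plates.

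Cells with at least 2000 transcripts outside spike-in and mitochondrial rows were summed per plate and condition. Sums of at least 10 cells were rounded to whole numbers, filtered with filterByExpr, scaled by TMM and tested with edgeR 4.0.16 (R 4.3.3), with Benjamini-Hochberg adjustment at 0.05. Plate was a block, since sums of 1 physical plate pair by design, and condition a term within line. The procedure was checked on simulated counts. No label ties a plate to its own culture, and p-values therefore reflect plate-to-plate spread that may be technical.

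Levels are CPM with exact Poisson 95% intervals, ratios have exact conditional binomial intervals, and shares exact Clopper-Pearson intervals. The floor is 3 transcripts. Log2 changes on plate 1 are log2 of CPM + 10. A 2-fold count needed 100 CPM in the higher group. Named genes were the 12 largest rises and falls with at least 100 CPM, found in at least 10% of cells, with no cell over 20% of transcripts, predicted, clone and ribosomal genes left out, then every edgeR call, listed BMP target, hormone and serotonin genes from 50 CPM, and up to 4 per other list. Genes named outside it, such as Smad6, Chac1 and Atf5, were chosen after their values were seen. The members and the 19 gene lists were chosen with earlier results of these data known, and 2 more lists were drawn up after the values were seen. Alternatives were DESeq2 1.42.0, no TMM, no filter, other depth and cell minimums, left-out plates, a mean over cells, and cells without a leading other gene. Doublets were not called in these sorted single wells.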

Additional observations from a re-analysis of the deposited data

Results flagged for a closer look

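Wells of 200 to under 2000 transcripts entered none of the comparisons as reported, although those from 1000 entered an alternative, and some of them held the same genes. On Tac1 plate 1, Sct had 1195 CPM (861 to 1614) in 32 such wells at 24 h and 173 CPM (35.7 to 506) in 14 untreated wells. On Tac1 plate 2, Id1, Id2 and Id3 together had 1480 CPM (958 to 2185) in 19 wells at 24 h and 36.3 CPM (0.92 to 202) in 31 untreated wells. Sct on that plate had 1303 CPM (816 to 1972) in the wells at 24 h and 400 CPM (199 to 715) in the untreated wells. In these 3 cases the counting intervals did not overlap. On plate 1 the Id sum had 512 CPM (303 to 809) at 24 h and 115 CPM (13.97 to 417) in untreated wells, and these intervals overlapped.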

How the results depend on the processing

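Of 3 genes called by edgeR, DESeq2 gave 7, no filter 16, cells with endocrine genes 21, only Tac1 plates 5 and leaving out cells led by another gene 0, the last chosen after seeing the data. Leaving out a plate gave 0 (Tac1 plate 2) to 17 (Gcg plate 2). Without the plate block the paired analysis gave 3, and the difference between lines stayed at 0. That difference, 0 called, had 7 with no filter, 21 in cells with endocrine genes, and 0 to 24 with a plate left out. Deviations of sums from the same plate correlated at 0.0964 in the Tac1 line and at -0.295 to 0.223 in the Gcg line. The 32 higher and 29 lower genes became 54 and 52 as a mean over cells, 128 and 141 from 50 CPM, and 10 and 14 from 200 CPM. The Id share at 24 h was 9.26% thinned to 1000 transcripts, and from 1 transcript 64.8% at 24 h and 19.1% untreated. Thinned to 1000, the Sct share from 5 transcripts was 0.0% in untreated cells. Thinned to 2000, the Sct share from 1 transcript was 61.1% at 24 h and 45.6% untreated. Without cells led by another gene, the log2 change reversed for Cck (0.28), Gip (0.23), Sst (0.22), Ghrl (0.36) and Scg2 (0.29). The cause was not tested. Of the named genes on plate 1 under the other settings, 809 values stayed within their counting interval and 33 moved beyond it. Depth limits the low genes, and the ratio of Tbx3, with 39 transcripts at 24 h and 10 in untreated cells, had an interval of 2.52 to 11.6.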
